A study of Mus musculus with 4 samples.

Results

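Kit, the gene of a receptor tyrosine kinase, and 9 genes whose products bind the receptor or work directly below it were examined in cultured mouse cells. The members are Kit, Kitl, Gab2, Shc1, Grb2, Ptpn6, Ptpn11, Lyn, Sh2b3 and Cbl. They were picked by gene symbol from a table of 55359 genes, and each of the 10 symbols matched 1 row. The members were proposed with earlier results of these data known, so their values are given as a description and are not tested.

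The 4 samples are poly(A) RNA libraries of one kind of culture, named by the number that opens each title (01, 02, 21 and 22). Every library is labelled as female germ line stem cells, with ovary as the tissue, FGSCs in the strain field and female mice as the developmental stage. Per the labels' protocols, all cultures grew in MEM-alpha with fetal bovine serum, non-essential amino acids, pyruvate, glutamine, penicillin, β-mercaptoethanol and the growth factors LIF, GDNF, EGF and basic FGF. The list of supplements does not name KIT ligand. The sources used here give no mouse strain, age, passage or feeder layer. The series design speaks of celastrol, a plant triterpenoid, and of control cells at 12 h, and its title asks about STING, NLRP3 and pyroptosis. The design also says triplicate, while 4 samples are listed. Since the 4 libraries carry no treatment label, none can be called treated or control. Each gene is described by its value in every library, in the order 01, 02, 21 and 22, without replicate error.

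KIT sits in the cell membrane, and its ligand, the product of Kitl, draws receptor molecules into pairs that phosphorylate each other on tyrosines. Adaptor proteins, kinases and phosphatases with SH2 domains dock on those tyrosines and pass the signal to the RAS-ERK and PI3K-AKT pathways, or end it. In the ovary, granulosa cells make the ligand and oocytes carry the receptor, and KIT also serves primordial germ cells, mast cells, melanocytes and blood progenitors.

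The libraries held between 12339636 and 13039541 counts, and between 11854 and 11978 genes reached 1 FPKM, the level called detected here. FPKM, as deposited by the authors, sets the reads of a gene against the length of its exons and the depth of the library. The labelled cell type was checked against its markers. Of 15 germ cell markers, Kit was the one detected in every library, 14 were under 1 FPKM in every library, and 6 of these (Tfap2c, Dppa3, Nanos2, Nanos3, Figla and Sycp3) had no count. Without Kit, the other 14 summed to 0.24, 0.57, 0.25 and 0.3 FPKM, and Prdm1 and Dnd1 had the highest medians among them. All 10 general blood cell markers passed 1 FPKM throughout, with sums of 421, 412, 454 and 461 FPKM, led by Coro1a, Laptm5 and Cd53. The widest of these was Was, a cytoskeleton regulator of blood cells, at 22.9, 22.3, 33.7 and 34.8 FPKM. Of 14 mast cell markers, Cpa3 and Gata2 were detected in every library and 11 were under 1 FPKM throughout, among them 6 with no count (Mcpt4, Tpsb2, Fcer1a, Mcpt1, Mrgprb2 and Mrgprb1). The mast cell list summed to 508, 492, 363 and 383 FPKM, which Cpa3 and Gata2 made up almost wholly, and Mcpt2 lay near the limit at 1.15, 0.94, 1.07 and 0.81 FPKM. The part that the makeup of the cultures has in the values of the members was not tested, and in bulk RNA fewer cells of a type and less RNA per cell cannot be told apart.

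The promoters of the 3 members that varied most over the libraries, Kit, Ptpn6 and Kitl, are shown first, so that their letters can be read beside the values. Each is the stretch of 250 bases before the first base of the transcript, from RefSeq on GRCm38.p6, written 5′ to 3′ on the strand of the gene. Promoters were found for 8 of the 10 members, and the first of the 2 listed for Kit was taken. Capitals mark any match, on either strand, to 4 motifs. These were a GATA site (the word AGATAA, the word AGATAG, the word TGATAA or the word TGATAG), an E-box (CANNTG), an Sp1 box (GGGCGG) and a PU.1 site (GAGGAA).
Kit (chr5:75574737-75574986, plus strand): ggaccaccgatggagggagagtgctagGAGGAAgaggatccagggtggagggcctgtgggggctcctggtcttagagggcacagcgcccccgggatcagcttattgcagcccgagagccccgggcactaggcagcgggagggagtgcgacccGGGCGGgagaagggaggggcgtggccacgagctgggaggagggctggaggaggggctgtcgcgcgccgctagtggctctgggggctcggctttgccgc
Ptpn6 (chr6:124738710-124738959, minus strand): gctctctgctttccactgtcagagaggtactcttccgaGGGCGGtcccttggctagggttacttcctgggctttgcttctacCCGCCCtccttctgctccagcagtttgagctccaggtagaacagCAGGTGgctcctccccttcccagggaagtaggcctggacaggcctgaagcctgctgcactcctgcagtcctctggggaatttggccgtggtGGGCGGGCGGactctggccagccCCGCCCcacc
Kitl (chr10:100015571-100015820, plus strand): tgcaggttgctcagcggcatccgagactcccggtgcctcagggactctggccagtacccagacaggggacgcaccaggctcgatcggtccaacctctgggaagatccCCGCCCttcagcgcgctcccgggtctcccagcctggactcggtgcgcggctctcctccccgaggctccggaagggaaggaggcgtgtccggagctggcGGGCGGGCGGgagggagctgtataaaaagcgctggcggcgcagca
The Kit stretch held 1 Sp1 box and 1 PU.1 site and neither a GATA site nor an E-box. The Ptpn6 stretch held 5 Sp1 boxes and 1 E-box, and the Kitl stretch 3 Sp1 boxes and no match to the other motifs. In both of these, 2 of the Sp1 boxes overlap. Over the same window of all 32851 RefSeq promoters, 32.7% held an Sp1 box, 66.2% an E-box, 26.5% a GATA site and 23.3% a PU.1 site. Bases G and C made up 70.8%, 63.2% and 69.2% of the Kit, Ptpn6 and Kitl stretches, against a median of 52.4% over all promoters. A match describes the letters in the window and is not a binding site.

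The receptor gene Kit (ENSMUSG00000005672, chromosome 5, 75735576 to 75817382 on the plus strand) was at 58.9, 64.6, 100.7 and 100.3 FPKM, from 6477, 7506, 11114 and 11479 counts. Coordinates of the members are as deposited, and the build behind them is not given in the sources used here. Libraries 21 and 22 were high and close together, and libraries 01 and 02 were low. By FPKM, Kit ranked 920, 805, 475 and 477 among all genes of the table, of which 11913, 11978, 11854 and 11883 were detected. The level in library 21 was 1.71 times that in library 01, with an exact 95% interval of 1.66 to 1.76 that covers counting error only. The range of a gene, meaning its highest minus its lowest log2(FPKM + 1) over the 4 libraries, was 0.76 for Kit, wider than for 93.3% of the 11874 genes that averaged at least 1 FPKM.

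The ligand gene Kitl (ENSMUSG00000019966, chromosome 10, 99851492 to 99936278 on the plus strand) was at 8.95, 11.1, 5.46 and 6.42 FPKM, from 653, 856, 400 and 488 counts. It ran the other way from Kit, with libraries 01 and 02 above libraries 21 and 22, and library 02 highest. The level in library 02 was 2.03 times that in library 21 (exact 95% interval 1.80 to 2.30), and the range of 0.91 was the widest of the 10 members. Kit and Kitl RNA were thus present in the same cultures, and the libraries do not show whether the same cells made both. Per kilobase, the Kit count was 6.58, 5.82, 18.4 and 15.6 times the Kitl count, with intervals of 6.07 to 7.14, 5.42 to 6.25, 16.7 to 20.4 and 14.3 to 17.1.

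**Figure D1:**
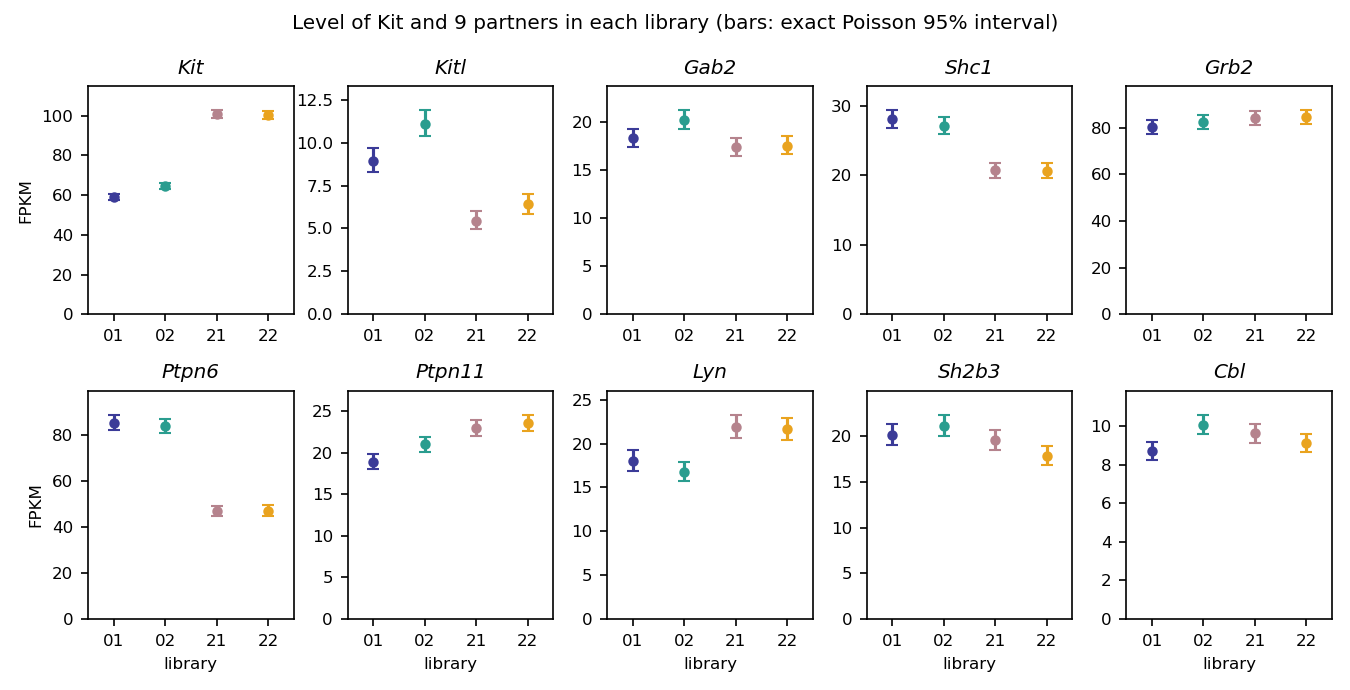
FPKM of the 10 members (vertical axes, each from 0) in libraries 01, 02, 21 and 22 (horizontal axis), with exact Poisson 95% intervals as bars. Kit is high in libraries 21 and 22 at 100.7 and 100.3 FPKM, Ptpn6 and Kitl are high in libraries 01 and 02, and Grb2 lies between 80.1 and 84.4 FPKM in every library.

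Both SHP phosphatases were transcribed, and they differed in how they varied. Ptpn6 encodes SHP-1, a tyrosine phosphatase of blood cells that binds KIT and dampens its signal. Ptpn6 (ENSMUSG00000004266, chromosome 6, 124697670 to 124715677 on the minus strand) was at 85.4, 83.7, 46.9 and 47.1 FPKM, from 2952, 3058, 1628 and 1696 counts. Libraries 01 and 02 were high and nearly equal, and libraries 21 and 22 were low and nearly equal. The level in library 01 was 1.82 times that in library 21 (exact 95% interval 1.71 to 1.94), a range of 0.85. Ptpn11 encodes SHP-2, a related phosphatase that carries receptor signals on to RAS and ERK. Ptpn11 (ENSMUSG00000043733, chromosome 5, 121268596 to 121329460 on the minus strand) was at 18.9, 21, 23 and 23.5 FPKM, lowest in library 01 and highest in library 22. Its ratio of highest to lowest library was 1.24 (exact 95% interval 1.17 to 1.32) and its range 0.30, or 0.16 without library 01.

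The ratio of Kit RNA to Ptpn6 RNA therefore differed between libraries, while the proteins were not measured. Per kilobase, Kit was below Ptpn6 in libraries 01 and 02, at 0.69 and 0.77 of its level, and above it in libraries 21 and 22, at 2.15 and 2.13 times its level. The exact 95% intervals of these ratios were 0.66 to 0.72, 0.74 to 0.81, 2.04 to 2.26 and 2.02 to 2.24. Ptpn6 exceeded Ptpn11 in every library, by 4.51, 3.98, 2.04 and 2.00 times. The ratio of Kit to Ptpn11 moved less, at 3.11, 3.08, 4.38 and 4.26.

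**Figure D2:**
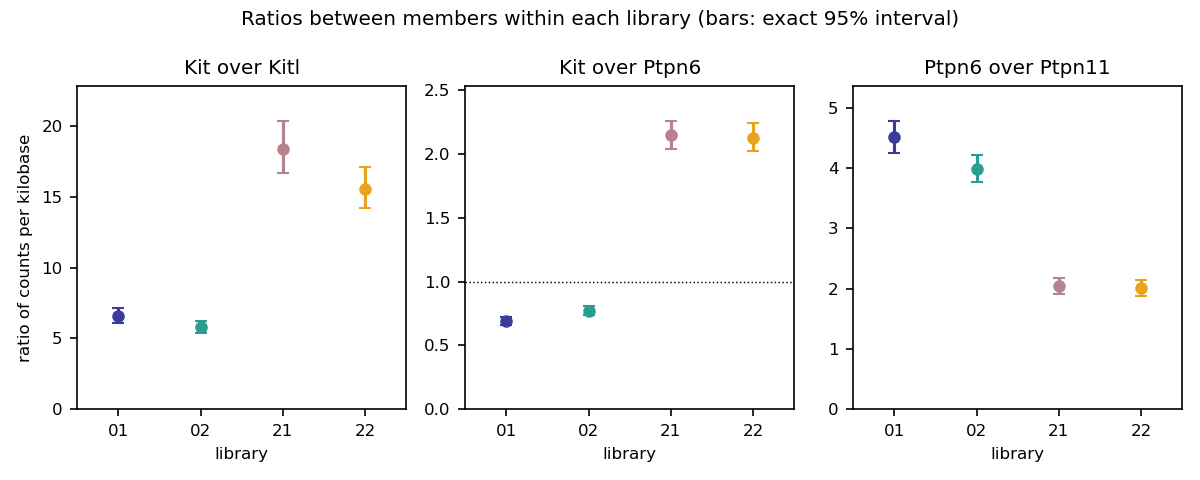
Ratios of counts per kilobase of exonic gene size between pairs of members (vertical axes) within libraries 01, 02, 21 and 22 (horizontal axis), with exact 95% intervals that cover counting error only. Kit over Ptpn6 lies under 1, the dotted line, in libraries 01 and 02 and at 2.15 and 2.13 in libraries 21 and 22.

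The adaptor genes varied less than the receptor, the ligand and Ptpn6. Shc1 encodes an adaptor that links phosphorylated receptors to GRB2. Shc1 (ENSMUSG00000042626, chromosome 3, 89325750 to 89337334 on the plus strand) was at 28.1, 27.1, 20.7 and 20.7 FPKM, high in libraries 01 and 02 and low in libraries 21 and 22. Its ratio of highest to lowest library was 1.36 (exact 95% interval 1.27 to 1.45) and its range 0.42. Grb2 (ENSMUSG00000059923, chromosome 11, 115534871 to 115599423 on the minus strand), the adaptor gene whose product brings the RAS activator SOS to the receptor, was at 80.1, 82.4, 84.1 and 84.4 FPKM. Its range of 0.07 was the narrowest of the members over the 4 libraries and wider than for 3.37% of all genes with a range. It was 0.03 without library 01, and without library 02 that of Gab2 was narrower. Its Poisson intervals overlapped in all pairs of libraries, while the exact interval of the ratio of library 22 to library 01, 1.05, ran from 1.0007 to 1.11. Gab2 (ENSMUSG00000004508, chromosome 7, 96730793 to 96958153 on the plus strand), which encodes a scaffold that gathers PI3K and SHP-2, was at 18.3, 20.2, 17.4 and 17.6 FPKM. Library 02 was highest and the others lay within 0.07 of each other on the log2 scale, which is the range without library 02, against 0.20 with it.

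The kinase gene Lyn, like Kit, was higher in libraries 21 and 22 than in libraries 01 and 02, though lowest in library 02 where Kit was lowest in library 01. Lyn (ENSMUSG00000042228, chromosome 4, 3678115 to 3813122 on the plus strand) encodes a Src family kinase that binds near the membrane-proximal tyrosines of KIT. It was at 18, 16.8, 21.9 and 21.6 FPKM, with a ratio of highest to lowest library of 1.30 (exact 95% interval 1.19 to 1.42) and a range of 0.36. Of the stretches of 100 bases in its GENCODE M21 transcripts, 88.4% were found in no other gene, the lowest share of the members, so part of its reads may be credited elsewhere. The other members had shares of 96.7% or more.

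The genes of 2 proteins that end KIT signalling, an inhibitory adaptor and a ubiquitin ligase, stayed within a narrow band. Sh2b3 (ENSMUSG00000042594, chromosome 5, 121953551 to 121975709 on the minus strand), the gene of the inhibitory adaptor LNK, was at 20.2, 21.1, 19.6 and 17.9 FPKM, lowest in library 22, with a ratio of highest to lowest library of 1.18 (exact 95% interval 1.09 to 1.28) and a range of 0.23, or 0.10 without library 22. Its end overlaps that of Atxn2 on the other strand by 1006 bases of genomic span. Atxn2 was at 5.04, 5.89, 4.35 and 4.46 FPKM, and no strand-keeping step is named in the protocols, so reads in that overlap cannot be told apart. Cbl (ENSMUSG00000034342, chromosome 9, 44054273 to 44145346 on the minus strand), which encodes the ubiquitin ligase that marks the active receptor for breakdown, was at 8.72, 10.1, 9.62 and 9.1 FPKM. Libraries 02 and 21 were its highest, a pair that led in no other member, with a ratio of highest to lowest of 1.15 (exact 95% interval 1.07 to 1.24) and a range of 0.19. No other gene that overlaps a member had more than 9 counts in a library.

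All 10 members were detected in every library. By median FPKM the order of levels was Grb2 (83.2), Kit (82.4), Ptpn6 (65.4), Shc1 (23.9), Ptpn11 (22.0), Sh2b3 (19.9), Lyn (19.8), Gab2 (17.9), Cbl (9.36) and Kitl (7.69). Of the 9 steps in this order, 2 were larger than the spread over libraries, those from Ptpn6 down to Shc1 and from Gab2 down to Cbl. At each of the other 7 steps the higher gene exceeded the lower in 2 of the 4 libraries, so these neighbours have no fixed order. Grb2 lay above Kit in libraries 01 and 02 and below it in libraries 21 and 22, where Kit was 1.20 and 1.19 times as high per kilobase.

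Of the 10 members, 3 (Kit, Kitl and Ptpn6) had a range above 0.5, a size that 17.3% of all genes that averaged at least 1 FPKM passed. The median range of all those genes was 0.27. The Poisson 95% intervals of the lowest and the highest library did not overlap for 9 members, with Grb2 as the exception, and for 56.8% of all those genes. The highest levels were in libraries 21 and 22 for 4 members (Kit, Grb2, Ptpn11 and Lyn) and for 31.1% of all those genes. They were in libraries 01 and 02 for 5 members (Kitl, Gab2, Shc1, Ptpn6 and Sh2b3) and for 31.2%, and in libraries 02 and 21 for Cbl and for 9.48%. No member was highest in 01 and 21, in 01 and 22 or in 02 and 22, against 9.11%, 9.01% and 10.1% of all those genes. Because the members were proposed with these values known, nothing is read from the difference between their counts and these shares.

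**Figure D3:**
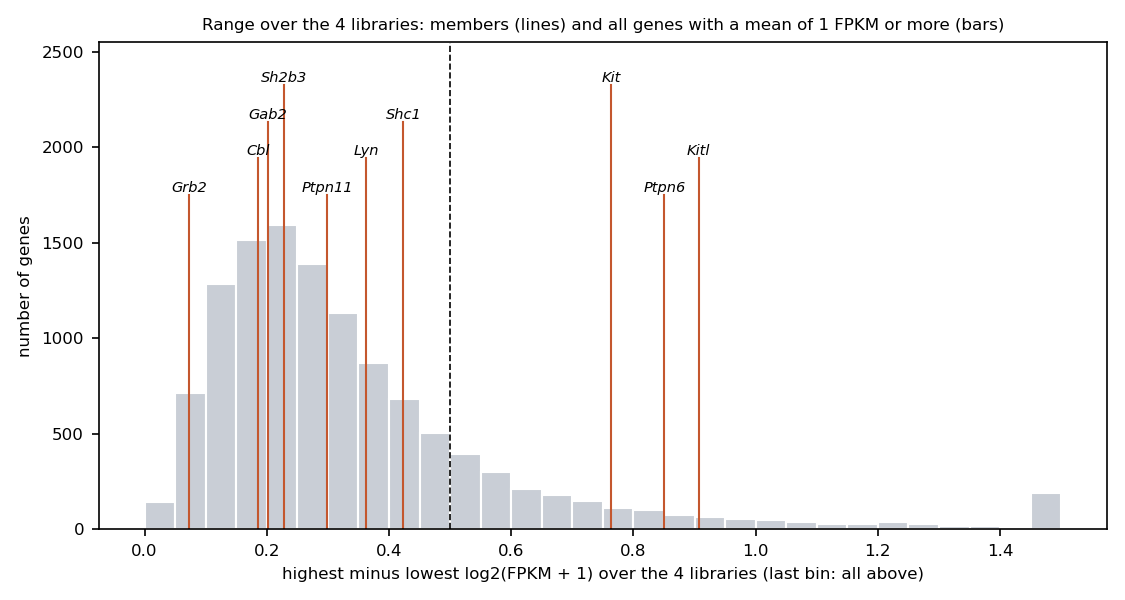
Highest minus lowest log2(FPKM + 1) over the 4 libraries (horizontal axis) for the 11874 genes that averaged at least 1 FPKM (bars, number of genes on the vertical axis) and for each member (lines). Kit, Ptpn6 and Kitl lie at 0.76, 0.85 and 0.91, to the right of the dashed line at 0.5, and Grb2 lies at 0.07.

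Pair by pair, the members differed least between libraries 21 and 22. There the median absolute difference in log2(FPKM + 1) was 0.01 over the members and 0.08 over all genes that averaged at least 1 FPKM, no member had intervals that did not overlap, and 7.20% of all genes did. Between libraries 01 and 02 the medians were 0.11 over the members and 0.09 over all genes, and 4 members (Kit, Kitl, Ptpn11 and Cbl) had intervals apart, against 10.6% of all genes. In the pairs that set library 01 or 02 against library 21 or 22, the medians were 0.27 to 0.29 over the members and 0.16 to 0.17 over all genes. Intervals were apart for 6 members between 01 and 21, 7 between 01 and 22, 7 between 02 and 21 and 8 between 02 and 22. Over all genes the shares of those pairs were 32.6%, 33.7%, 34.2% and 34.9%. Whether intervals overlap depends on the counts. The members had 400 to 11479 counts per library, while Gata1, which is among all those genes, had 45 to 111. The members were also proposed with these values known, so nothing is read from the differences between members and all genes. Over all genes, the mean chi-square per gene was 3.03 between libraries 21 and 22, 3.21 between libraries 01 and 02 and 18.2 to 19.6 in the other 4 pairs. Independent counts with Poisson noise alone would give about 1, and since PCR copies are not independent, values above 1 do not by themselves show separate cultures.

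Within their gene families, most members were the main transcript. Grb2 made up 98.5%, 98.9%, 97.7% and 97.2% of the summed FPKM of itself, Grap and Grap2. Shc1 took 96.9%, 96.6%, 96.5% and 95.9% of that of the 4 Shc genes, and Gab2 took 86.4%, 89.6%, 91.7% and 88.1% of that of the 3 Gab genes. In the Src, Sh2b and Cbl families the members took smaller shares. Lyn took 44.5%, 42.1%, 48.2% and 48.4% of the summed FPKM of 8 Src family kinases, followed by Fyn at 13.4, 13.5, 14.2 and 12 FPKM and Src at 7.18, 7.54, 7.74 and 8.47 FPKM. Sh2b1 was above Sh2b3 in every library, at 26.1, 27, 22.4 and 23.7 FPKM, which left Sh2b3 with 39.1%, 39.6%, 42.8% and 39.2%. Cbl took 62.8%, 65.8%, 67.0% and 63.5% of the 3 Cbl genes, with Cblb as the second.

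Some blood cell relatives of Lyn were at 0 or near the detection limit. Blk had no count in any library, where up to 3 counts could be missed by chance at this depth, and Fgr had at most 1 count. Lck had 33, 40, 23 and 46 counts, at most 1.22 FPKM.

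**Figure D4:**
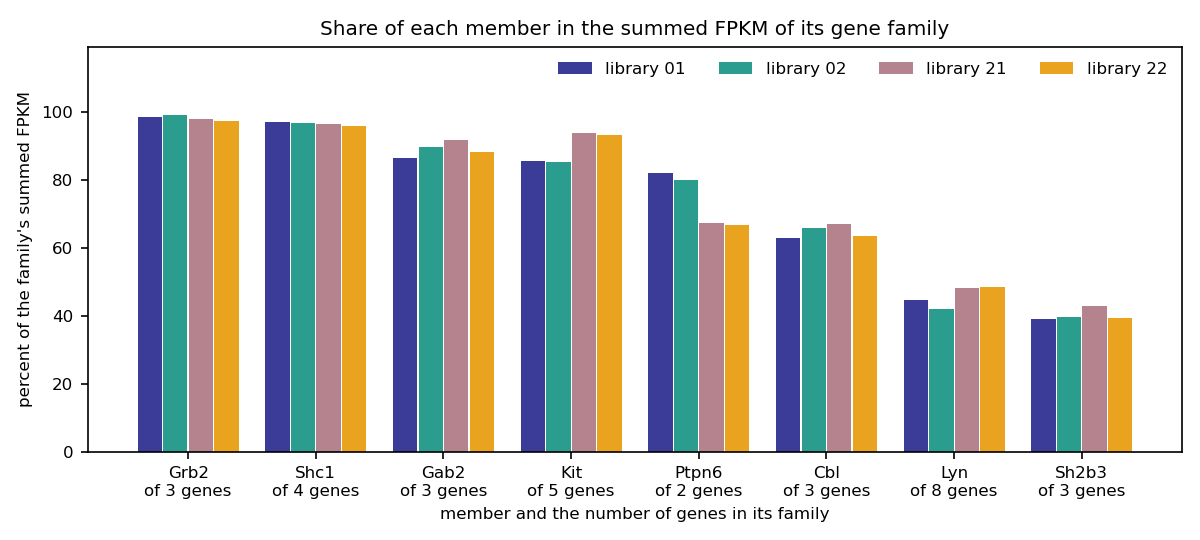
Percent of the summed FPKM of a gene family (vertical axis, from 0) that each of 8 members took (horizontal axis, with the number of genes in the family) in libraries 01, 02, 21 and 22 (bars, no error shown). Grb2 and Shc1 take over 95% in every library, and Ptpn6 takes 81.9%, 79.9%, 67.1% and 66.7% of the sum of the SHP pair.

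Among the 5 type III receptor tyrosine kinases, the family of KIT, Kit took 85.5%, 85.2%, 93.6% and 93.2% of the summed FPKM. Pdgfra, a receptor of platelet-derived growth factors, was the second at 9.28, 10.5, 5.97 and 6.36 FPKM, high in libraries 01 and 02 like Kitl and with a range of 0.72. Pdgfra is also on the fibroblast list, of which 7 of 10 markers were detected in every library, with sums of 205, 228, 206 and 206 FPKM led by Fn1, Col1a1 and Dcn. Of the 8 that averaged at least 1 FPKM, Pdgfra was the 1 with a range above 0.5. Of the same 8, 5 were highest in libraries 01 and 02, against 31.2% of all genes. Another 1, Dcn, was highest in libraries 21 and 22, at 20.3, 20.0, 23.1 and 24.1 FPKM, against 31.1%. Nothing is read from these differences. Csf1r and Flt3, the receptors of macrophage and early blood cell growth, had at most 11 and 2 counts. Of the 11 receptors and ligands of the family other than Kit and Kitl, 5 were detected in every library and 2, Pdgfra and Il34, had a range above 0.5. Of the ligands, Csf1 was at 29.3, 29.8, 25.1 and 25 FPKM and Pdgfa at 10.5, 9.96, 10.6 and 10.2 FPKM. Other cells that use KIT or its ligand left few marker transcripts. All 7 melanocyte markers were under 1 FPKM in every library, with Tyr, Tyrp1, Dct and Sox10 at 0 counts and Pmel at most 0.61 FPKM. Of 10 granulosa and theca markers 9 were under 1 FPKM, with Foxl2, Fshr, Cyp19a1 and Hsd3b1 at 0 counts, Amh and Star at most 0.24 and 0.97 FPKM, and Inhba at 3.99, 5.34, 5.05 and 6.25 FPKM. All 6 endothelial markers were under 1 FPKM, led by Cdh5, Pecam1 and Tie1, and of the 3 markers of interstitial cells of Cajal Gjc1 was the highest at 1.54, 1.29, 1.02 and 0.92 FPKM, above Ano1 and Etv1.

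Beyond the members, 113 other genes of KIT signalling and of Kit transcription were looked up by lists, of which 88 were detected in every library. Of the 90 that averaged at least 1 FPKM, 15 had a range above 0.5, or 16.7% against the 17.3% of all genes, a share near that of genes in general. Of these 15, 13 were highest in libraries 01 and 02 and 2, Grap2 and Dok2, in libraries 21 and 22, while of the 2058 genes of the whole table with such a range 41.2% and 27.2% were. Of the 90, 47.8% were highest in libraries 01 and 02 and 24.4% in libraries 21 and 22, against 31.2% and 31.1% of all genes. Of the 90, 64.4% had intervals apart against 56.8% of all genes. The lists were chosen with earlier results known, so nothing is read from these differences.

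The PI3K and AKT genes were all detected, and the catalytic subunit Pik3cd stood out in level and range. Pik3cd, the form of PI3K typical of white blood cells, was at 149, 150, 87.9 and 83.7 FPKM, high in libraries 01 and 02, with a range of 0.83. It was the 1 wide gene among 14. Akt1 was at 71.6, 74.0, 74.0 and 71.3 FPKM and the regulatory subunit gene Pik3r2 at 31.6, 31.8, 31.5 and 30.8 FPKM, both with a range of 0.05. None of 16 RAS and ERK genes had a range above 0.5. Mapk3, which encodes ERK1, was at 58.7, 49.7, 50.6 and 48 FPKM, and Nras at 43.8, 44.6, 48.6 and 48.9 FPKM. The widest was Spred2, an inhibitor of that pathway, at 15.5, 16.4, 12.2 and 11.6 FPKM with a range of 0.47.

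Of the 7 JAK and STAT genes, all detected, Stat5a was the 1 with a range above 0.5. It was at 26.2, 25.8, 18 and 16.7 FPKM, high in libraries 01 and 02, with a range of 0.62, while its close relative Stat5b was at 30.3, 30.5, 29.2 and 27 FPKM. By median FPKM Jak1 led the list, at 30.8, 30.1, 34 and 34.6 FPKM, though Stat5b was above it in library 02. Cish, a feedback inhibitor that STAT5 induces, was at 15.8, 16.6, 9.87 and 10.2 FPKM, high and low in the same libraries as Stat5a, and had the widest range of the 18 genes of receptor brakes and turnover, 0.69. In that list 15 genes were detected in every library and 2 had a range above 0.5, the other being Ubash3b. Its highest by median FPKM were Adam10, Socs5 and Inppl1. Adam10, a membrane protease gene, was at 34.1, 38.1, 30.4 and 31 FPKM. Socs5 was at 24.3, 23.5, 20.8 and 19.7 FPKM and Inppl1 at 20.5, 21, 18.4 and 16.3 FPKM.

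Among 21 other adaptors, 13 were detected in every library and 5 of 14 with a range passed 0.5. These were Grap2, Grb10, Dok1, Dok2 and Lat2. Lat, known from T cells and mast cells, was level at 67.8, 64.5, 64.9 and 65.7 FPKM, while its relative Lat2 was at 65.9, 61.1, 42.8 and 44.8 FPKM. Vav1, an exchange factor of blood cells, was at 34.7, 31.9, 33 and 29.3 FPKM. Grap2, a blood cell relative of Grb2, had the widest range, 0.80, at 0.69, 0.72, 1.36 and 1.94 FPKM from 53, 59, 105 and 156 counts. Of 12 other tyrosine kinases 7 were detected in every library and none had a range above 0.5. Csk, which restrains Src family kinases, was at 53.7, 53.6, 53.4 and 52 FPKM, and Btk at 38.8, 38, 32.9 and 33.9 FPKM. Of the 8 that averaged at least 1 FPKM, Yes1 was the widest with 0.23, at 0.99, 1.09, 0.99 and 1.34 FPKM. Its intervals overlapped, and Btk also had a range of 0.23. Lck, which averaged less than 1 FPKM, had a range of 0.45.

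Of 14 transcription factors known to act on Kit or in cells that carry it, 11 were detected in every library. The list had the widest median range of the 8, 0.39, against 0.27 over all genes with a range. Of the 11 that averaged at least 1 FPKM, 4 (Gata1, Lmo2, Runx1 and Tfap2a) had a range above 0.5, against 17.3% of all genes. These 4 were highest in libraries 01 and 02, against 41.2% of all genes with such a range. Of the same 11, 6 were highest in libraries 01 and 02, against 31.2% of all genes. Another 2, Sp1 and Myb, were highest in libraries 21 and 22, against 31.1%. The list was chosen with earlier results known, so nothing is read from these differences. Sp1, the gene of the factor after which the Sp1 box is named, was at 13.9, 14.7, 17.6 and 18.1 FPKM with a range of 0.36. The intervals of its lowest and highest library did not overlap. Any link between Sp1 RNA, the Sp1 boxes and the levels of the members was not tested. Gata2, a blood and mast cell factor, was at 173, 165, 131 and 135 FPKM, also high in libraries 01 and 02, with a range of 0.39. Gata1 had the widest range, 0.88, at 2.69, 3.49, 1.62 and 1.44 FPKM from 81, 111, 49 and 45 counts. Ldb1, at 37.1, 37.5, 37.9 and 36.1 FPKM, and Tcf3, at 34, 32.4, 33.9 and 32.5 FPKM, were level with a range of 0.07 each. The germ cell factors Sohlh1 and Sohlh2, known to act on Kit in mouse germ cells, had 1 count each over the 4 libraries.

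The genes whose pattern was most like that of Kit were sought by the root mean square distance between centred log2(FPKM + 1) values over the 4 libraries, among 7730 other genes that averaged at least 5 FPKM. The 8 nearest were Cdk2ap1 (distance 0.025), Eif2ak3 (0.026), Herpud1 (0.042), Pnrc1 (0.043), Gm10282 (0.048), Slc7a8 (0.048), Itgb2 (0.049) and Susd6 (0.049). With 4 libraries such a likeness describes the order and spacing of 4 values and no more. Eif2ak3, the gene of a kinase of the unfolded protein response, was at 5.34, 6.29, 10.1 and 10.1 FPKM. Herpud1, an endoplasmic reticulum stress gene, was at 92.6, 94.9, 149.9 and 156 FPKM, and Itgb2, the beta 2 integrin of leukocytes, at 9.74, 10.9, 18.7 and 18.5 FPKM. Gm10282 is annotated as a predicted pseudogene, so its reads may come from a near-identical copy. Of the members, Lyn and Ptpn11 lay nearest to Kit, at distances of 0.21 and 0.24, and Ptpn6 and Kitl farthest, at 0.77 and 0.69.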

How the data were processed

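Read counts and FPKM per gene were taken as deposited. The deposited counts are whole numbers whose totals differ between libraries, and were taken as not normalised. The authors computed FPKM, per the file headers, and every value above 10 FPKM could be recomputed within 0.0496% from count, exonic gene size and library total. The submitters' processing notes list FastQC, HISAT2 and DESeq2 without version or role. The build, the annotation and the counter are not given in these sources. Of 52083 genes also found in GENCODE M21 (GRCm38), 1499 had the same start, so deposited coordinates are printed without a build and none was converted.

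The labels place no library in a group, so no test was run. It is also not known whether the libraries come from separate cultures. Counts carry exact Poisson 95% intervals and ratios exact conditional binomial 95% intervals (scipy 1.17.1). Both cover counting error only, since they hold no variance between replicates. PCR copies are not independent, so the intervals may understate even that error. Ranges used log2(FPKM + 1), which understates changes of low genes, for genes that averaged at least 1 FPKM. FPKM divides by the summed length of all annotated exons, so levels of genes with unused exons are understated. Functions were tested on simulated Poisson counts. TMM factors came from edgeR 4.0.16. Shared sequence was measured on GENCODE M21 transcripts, which may not be the authors' annotation.

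The members and lists were chosen with earlier results of these data known. Besides the members, the text names from each list the 3 genes with the highest median FPKM and the one with the widest range, the 8 genes nearest to Kit, and genes overlapping a member on the other strand. Other genes, among them the family relatives, those at 0 and those named in counts, were chosen after their values were seen. Some genes that this rule takes are left out of the text.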

Additional observations from a re-analysis of the deposited data

How the results depend on the processing

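All 10 members stayed detected at thresholds of 0.5 and 5 FPKM. The count of 3 members with a range above 0.5 was the same with pseudocounts of 0.1 and 5, after rescaling by median-of-ratios size factors, TMM factors or a common sum of FPKM, and without each library in turn. The count of 9 members with intervals apart held under the 3 rescalings and was 7 to 9 when a library was left out. No rescaling moved a library by more than 0.02 on the log2 scale. The range of Kit was 0.73 to 0.77 under the pseudocounts and rescalings, and 0.63 to 0.76 when a library was left out, lowest without library 01. The range of Kitl, 0.91 as reported, was 1.01 with a pseudocount of 0.1 and 0.62 with a pseudocount of 5. It was also 0.62 without library 02, and 0.71 without library 21. The range of Gab2 was 0.07 without library 02, that of Ptpn11 was 0.16 without library 01 and that of Sh2b3 was 0.10 without library 22, against 0.20, 0.30 and 0.23 with all libraries. The range of Grb2 was 0.03 without library 01, against 0.07. Fewer libraries can only keep or narrow a range. With a minimum mean of 1 FPKM in place of 5, 5 of the 8 genes nearest to Kit were the same. The median range of each of the 8 pathway lists moved by less than 0.1 without a filter on low values. No paired analysis was possible because the labels put the libraries in no groups. Levels rest on 400 to 11479 counts per member and library, so depth limits Kitl most.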
